A study of Homo sapiens with 6 samples.

Results

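The genes described here are 37 genes of mitosis: the cyclins and kinases that start it, the checkpoint and kinetochore proteins that control chromosome attachment, and factors of the spindle, anaphase and cytokinesis. They were chosen by name, and each name was matched to its gene identifier in GENCODE release 29. All 37 were found among the 58721 genes of the table, and all 37 were among the 14180 genes with enough counts to be tested. Kinesin genes and CENPE were left out by the rule.

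RNA was sequenced from HEK293T cells, a human embryonic kidney line, of 2 genotypes: wild type, and cells in which both ALKBH5 and FTO had been knocked out with CRISPR/Cas9, called double knockout. These genes encode enzymes that remove methyl groups from N6-methyladenosine (m6A) in RNA. Each genotype had 3 libraries, which the series text calls independent biological replicates, from RNA of cleared detergent lysates (cytoplasmic RNA) that was depleted of rRNA and not selected for poly(A). The labels name no treatment of either group, and cycloheximide was in the lysis buffer of both. The sources used here do not give the number of knockout clones, so a difference between the genotypes and a difference between cell lines or clones cannot be told apart. The wild type columns carried the name HEK293G6, which the labels do not explain.

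Gene counts per library totalled 5634648 to 7551825, and a mitotic gene had between 53 and 3322 counts in a library. Levels are given as CPM, counts per 1000000 counts after TMM scaling of the libraries. RNA of both knocked-out genes fell and was still present: FTO was at 106, 96.5 and 112 CPM in wild type against 53.8, 53.6 and 61.0 CPM, and ALKBH5 was at 243, 256 and 235 CPM against 186, 186 and 187 CPM. All 6 markers fixed for this line were detected (KRT8, KRT18, VIM, PAX2, LHX1 and NEFM), with summed levels of 988 to 1055 CPM in wild type and 1421 to 1427 CPM in the double knockout. Most of these sums came from VIM, with means of 844 CPM in wild type and 1157 CPM in the double knockout. PAX2 had means of 3.38 and 6.73 CPM, and LHX1 had 3.09 and 6.67 CPM. Haematopoietic markers summed to 1.09 to 2.62 CPM over all libraries, with CD3E and HBB at 0, hepatocyte markers to 0.363 to 1.37 CPM, and fibroblast markers to 16.4 to 19.4 CPM in wild type and 9.49 to 11.2 CPM in the double knockout, with COL1A2 at 0.

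Entry into mitosis is driven by CDK1 bound to A- and B-type cyclins, and by the Aurora and Polo-like kinases. At the kinetochore, the protein assembly that joins centromeres to spindle microtubules, unattached sites generate a checkpoint signal that holds back the anaphase-promoting complex until all chromosomes are attached. Transcripts of many such genes, though not of all, accumulate in G2 and M phase and fall in G1. Their promoters often hold a cell cycle genes homology region (CHR), an element bound by the MuvB complexes with B-MYB, FOXM1 or the DREAM repressor proteins, and CCAAT boxes bound by NF-Y. In dividing cultures such as HEK293T, their RNA level therefore depends on how many cells are in G2 and M phase as well as on the level in each cell, and bulk RNA cannot tell fewer such cells from less RNA per cell.

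The promoters are shown first. CHR elements and CCAAT boxes were searched because they are known from genes of G2 and M phase, and no other promoter feature was searched. RefSeq promoter windows (GRCh38.p14, 250 bases before to 50 bases after a gene start) were matched for 29 of the 37 genes, in 36 windows. AURKA, BIRC5, BUB3, CENPH, FOXM1, TPX2, TTK and UBE2C were not matched. Windows were searched on both strands for TTTGAA or TTCGAA (CHR) and for CCAAT, and a gene with several windows counted as holding a motif if any window did. Printed below are the 150 bases before the start, 5′ to 3′ on the gene's strand, of the separase gene ESPL1, PLK1, CENPA, BUB1B and CDC20, which fell, of the cyclin pair CCNB1, which fell, and CCNB2, which did not pass the test, and of HMMR, which rose. Capitals mark every match on either strand, so that a CHR reads TTTGAA or TTCAAA and a CCAAT box reads CCAAT or ATTGG.
ESPL1, chr12:53268149-53268298, plus strand: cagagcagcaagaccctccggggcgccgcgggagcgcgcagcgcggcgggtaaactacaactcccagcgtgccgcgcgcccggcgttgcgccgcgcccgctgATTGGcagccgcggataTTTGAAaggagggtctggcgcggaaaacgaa
PLK1, chr16:23678739-23678888, plus strand: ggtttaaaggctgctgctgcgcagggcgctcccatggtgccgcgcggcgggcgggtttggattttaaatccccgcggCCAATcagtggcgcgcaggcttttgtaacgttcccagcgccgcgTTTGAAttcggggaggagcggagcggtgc
CENPA, chr2:26785906-26786055, plus strand: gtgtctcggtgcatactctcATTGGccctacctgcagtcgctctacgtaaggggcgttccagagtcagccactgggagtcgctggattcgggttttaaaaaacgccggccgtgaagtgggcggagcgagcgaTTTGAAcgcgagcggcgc
BUB1B, chr15:40160919-40161068, plus strand: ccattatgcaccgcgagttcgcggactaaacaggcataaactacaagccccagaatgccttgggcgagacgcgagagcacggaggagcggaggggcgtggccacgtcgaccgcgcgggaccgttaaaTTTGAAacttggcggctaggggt
CDC20, chr1:43358831-43358980, plus strand: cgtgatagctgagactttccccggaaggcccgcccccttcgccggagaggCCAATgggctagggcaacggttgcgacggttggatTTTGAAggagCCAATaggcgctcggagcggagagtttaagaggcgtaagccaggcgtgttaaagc
CCNB1, chr5:69167000-69167149, plus strand: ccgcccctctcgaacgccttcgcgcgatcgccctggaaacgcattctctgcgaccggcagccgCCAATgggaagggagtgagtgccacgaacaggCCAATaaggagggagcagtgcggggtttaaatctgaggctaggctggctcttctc
CCNB2, chr15:59104996-59105145, plus strand: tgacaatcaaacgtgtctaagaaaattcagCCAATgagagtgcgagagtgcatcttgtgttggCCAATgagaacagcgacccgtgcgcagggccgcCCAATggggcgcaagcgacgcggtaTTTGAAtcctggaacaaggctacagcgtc
HMMR, chr5:163460482-163460631, plus strand: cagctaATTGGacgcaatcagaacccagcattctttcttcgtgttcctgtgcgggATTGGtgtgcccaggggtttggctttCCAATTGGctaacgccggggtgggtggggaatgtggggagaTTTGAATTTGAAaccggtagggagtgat

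A CHR match was found in 22 of the 29 genes (75.9%), against 19.5% of the 27305 genes with a window and 15.4% of the 10092 of them that were tested here. A CCAAT match was found in 23 of 29 (79.3%), against 39.7% of all genes with a window, and both motifs were found in 18 (62.1%), against 7.85%. These shares are descriptions of the gene list and not of its response. Both motifs stood in 11 of the 17 matched genes that fell, in 6 of the 9 that did not pass the test and in 1 of the 3 that rose. In ESPL1 the CHR began at position -31 and the CCAAT match at -48, counted from the gene start, and in PLK1 they began at -29 and -73. CCNB2 had a CHR at -29 and CCAAT matches at -54, -87 and -120 in the printed bases, while CCNB1 had CCAAT matches at -55 and -87 and no CHR of these letters in its window. HMMR, which rose, had adjoining CHR matches at -28 and -22 and overlapping CCAAT matches on opposite strands at -69 and -66. CKAP2 and TACC3, which also rose, had neither motif in their windows. The TACC3 window ends before the start of the gene in GENCODE release 29 and may not be the promoter of the counted transcripts. The CKAP2 window (chr13:52455738-52456037, plus strand) begins beyond the gene's GENCODE start at 52455429, so the bases before that start were not searched. Windows of HMMR, PLK1 and CENPA also begin beyond the GENCODE gene start. The first transcribed bases of the TACC3 and MKI67 windows were found in no GENCODE transcript of the gene. The MKI67 window (chr10:128126374-128126673, minus strand) does hold the start of that gene in GENCODE release 29, at 128126385.

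**Figure D1:**
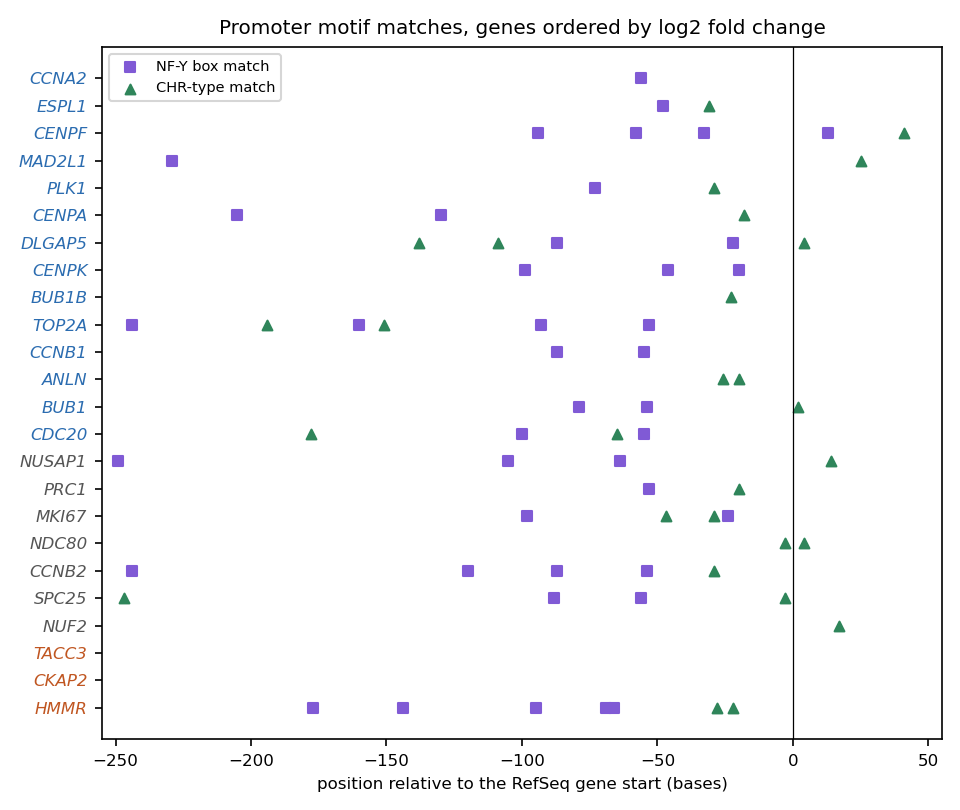
Positions of promoter motif matches (horizontal axis, bases from the RefSeq gene start) in the 24 genes with 1 promoter window, ordered from the largest fall at the top to the largest rise at the bottom. Triangles are CHR matches, squares are CCAAT (NF-Y box) matches, and gene names are blue for genes that fell, orange for genes that rose and grey for the others. TACC3 and CKAP2, which rose, have no match, and HMMR, which also rose, has several of each kind.

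Most of the mitotic genes that changed were lower in the double knockout. Of 37 genes, 21 fell, 5 rose and 11 did not pass the test (edgeR quasi-likelihood test, Benjamini-Hochberg adjusted p under 0.05 over all tested genes). Over all tested genes 57.1% passed (28.5% fell and 28.6% rose), so that the 21 falls are 56.8% of these genes and the 5 rises 13.5%. The median log2 fold change (double knockout over wild type) was -0.17, against 0.01 over all tested genes. From here on, the size of a fall or rise given without a percent sign or the word fold is on the log2 scale. With libraries scaled by the spike-in RNAs GFP and FLuc instead, 22 fell and 1 rose (HMMR), and 29.9% of all tested genes fell. Of the called genes, 66.5% were then lower, against 49.9% with TMM. That scaling moved the median of all tested genes from 0.01 to -0.10. Most changes were below 1.5-fold. Of the 37 genes, 5 (13.5%) fell by at least 1.5-fold, against 7.00% of all tested genes. By contrast 0 rose by that much, against 10.8% of all. Libraries of the groups did not overlap in 23 of the 37 genes that were lower and 4 of the 37 that were higher, against 30.3% of all tested genes in each direction. Summed over the 37 genes, the level was 5313, 5308 and 5298 CPM in the wild type libraries and 4633, 4531 and 4551 CPM in the double knockout libraries. The sum was lower by 13.8% in the mean, and every double knockout library lay below every wild type library.

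**Figure D2:**
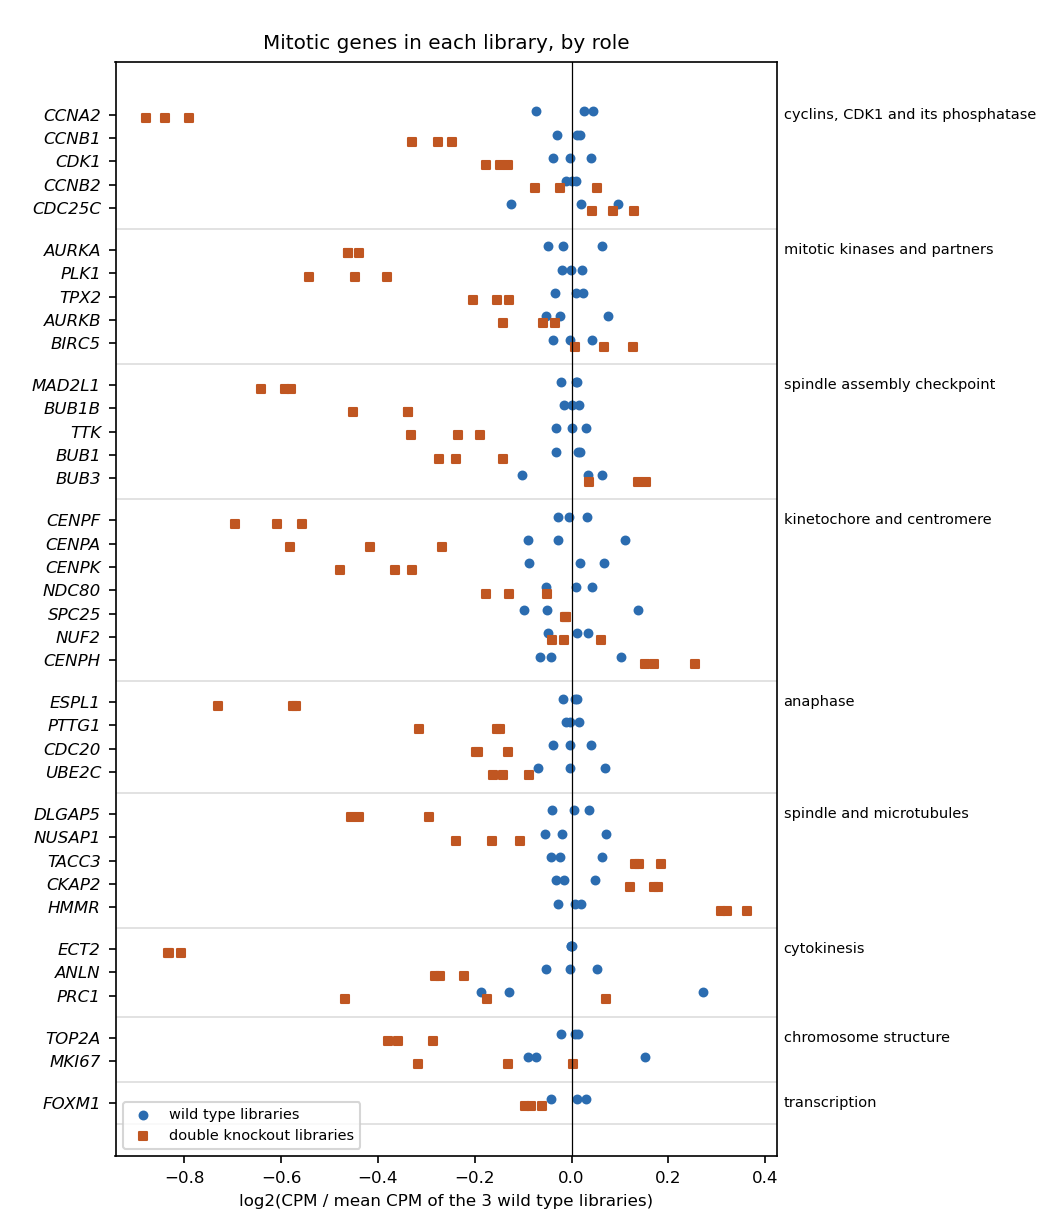
Level of each of the 37 mitotic genes in every library, as the log2 ratio of its CPM to the mean CPM of the 3 wild type libraries (horizontal axis), with genes grouped by role. Circles are wild type and squares double knockout libraries. CCNA2 and ECT2 lie farthest to the left and HMMR farthest to the right, and the groups overlap in genes such as CCNB2, NUF2, SPC25 and MKI67.

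Among the cyclins and CDK1, cyclin A2 had the largest fall and cyclin B2 hardly differed. CCNA2, the cyclin of S phase and early mitosis, had 177, 189 and 192 CPM in the wild type libraries, against 107, 104 and 101 CPM in the double knockout libraries. The groups were far apart, and CCNA2 had a log2 fold change of -0.83 (SE 0.04, adjusted p = 7.08e-61). CCNB1, the main mitotic partner of CDK1, had 258, 257 and 249 CPM and then 210, 203 and 215 CPM, and fell by 17.9%. CDK1 itself fell by 10.0% (log2 fold change -0.15, SE 0.04, adjusted p = 5.36e-04), from 185, 175 and 179 to 162, 159 and 164 CPM. In all 3 genes each double knockout library was lower than each wild type library. CCNB2, the second B-type cyclin, had 51.0, 51.5 and 51.7 CPM and then 53.3, 48.8 and 50.6 CPM, with a log2 fold change of -0.02 and a 95% interval of -0.15 to 0.12. CDC25C, a phosphatase that activates CDK1, had 30.9 to 36.0 CPM in wild type and 34.6 to 36.8 CPM in the double knockout (0.08, interval -0.09 to 0.24). Neither gene passed the test, and their libraries overlapped.

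Both cyclin B genes can be compared within each library, free of any scaling between libraries. The log2 ratio of CCNB2 to CCNB1 counts was -2.34, -2.32 and -2.27 in wild type and -1.98, -2.05 and -2.08 in the double knockout. It was higher in all 3 double knockout libraries, by 0.27. A two-sided exact permutation test over 3 against 3 libraries gave p = 0.1, the smallest it can give, and 5 such pairs were compared (adjusted p = 0.1 for each). Per exon length, CCNB1 was the most abundant of the 37 genes in wild type at 332 ± 10.1 TPM (counts per kilobase of exon, scaled to sum to 1000000 in a library; SD, n = 3), and CCNB2 had 61.2 ± 0.465 TPM.

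Of the mitotic kinases and their partners, AURKA, PLK1 and TPX2 fell, while AURKB and BIRC5 did not pass. AURKA, the kinase of spindle poles, had 127, 118 and 120 CPM in wild type, against 88.3, 89.7 and 88.3 CPM in the double knockout, and fell by 27.0% (log2 fold change -0.45, SE 0.05, adjusted p = 9.97e-18). PLK1, the Polo-like kinase that acts from mitotic entry to cytokinesis, fell by 26.9%, from 160, 163 and 165 to 112, 125 and 119 CPM. TPX2, a microtubule protein that activates AURKA, fell by 10.6%, from 266, 274 and 277 to 249, 236 and 245 CPM. The double knockout libraries lay below the wild type ones in each of these genes. AURKB and BIRC5 encode the kinase of the chromosomal passenger complex and its survivin subunit. AURKB had 106 to 116 CPM and 99.7 to 107 CPM (log2 fold change -0.08, adjusted p = 0.151), and BIRC5 had 305 to 323 CPM and 315 to 343 CPM (0.07, adjusted p = 0.0760). BIRC5 passed without double knockout replicate 3 (0.10, adjusted p = 0.0283). With total counts in place of TMM it passed too (0.12, adjusted p = 7.75e-04), as it did among genes with a mean CPM of at least 5 (0.08, adjusted p = 0.0202). Within libraries, the log2 ratio of AURKB to AURKA counts was -0.26, -0.02 and -0.15 in wild type, against 0.28, 0.15 and 0.26 in the double knockout (exact permutation p = 0.1). All 3 wild type libraries thus held fewer AURKB than AURKA counts, and all 3 double knockout libraries held more.

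Among the 5 genes of the spindle assembly checkpoint, 4 fell and 1 rose. MAD2L1 encodes MAD2, which captures CDC20 at unattached kinetochores. It fell by 34.3%, from 195, 195 and 191 to 129, 130 and 124 CPM (log2 fold change -0.60, SE 0.04, adjusted p = 4.96e-39). BUB1B, which encodes the checkpoint protein BUBR1, fell by 22.9%, from 101, 102 and 100 to 80.1, 80.0 and 73.9 CPM. The read-through gene BUB1B-PAK6 covers 10.2% of its exon bases and had 100 counts in wild type and 54 in the double knockout. TTK, the kinase MPS1 at the top of the checkpoint, fell by 16.1%, and the kinase gene BUB1 fell by 0.22 on the log2 scale. BUB1B and BUB1 are paralogs, and the log2 ratio of their counts was -0.64, -0.67 and -0.70 in wild type and -0.86, -0.77 and -0.85 in the double knockout (exact permutation p = 0.1). BUB1B was thus lower relative to BUB1 in all 3 double knockout libraries. BUB3, the WD40 protein that both kinetochore proteins bind, had 245, 250 and 223 CPM in wild type, against 266, 263 and 245 CPM in the double knockout. It rose by 0.11 (SE 0.04, adjusted p = 0.00864), although its groups overlapped. Its call was lost without wild type replicate 3 (0.06, adjusted p = 0.261), double knockout replicate 1 (0.08, 0.0942) or double knockout replicate 2 (0.09, 0.0738), and with spike-in scaling (0.0014, 0.991). It was also lost with DESeq2 (0.11, adjusted p = 0.0816) and without the low-count filter (0.09, 0.0592).

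Genes of the kinetochore and centromere moved unequally: 3 fell, 1 rose and 3 did not pass. CENPF, a large protein of the outer kinetochore, had 238, 228 and 232 CPM in wild type, against 153, 144 and 158 CPM in the double knockout. Its log2 fold change was -0.62 (SE 0.04, adjusted p = 1.29e-44). CENPA, the histone H3 variant that marks centromeres, had 63.5, 60.8 and 69.9 CPM and then 53.8, 43.2 and 48.5 CPM, and fell by 24.8%. CENPK and CENPH encode neighbouring subunits of the inner kinetochore network, and they moved in opposite directions. CENPK fell by 23.5%, from 69.7, 62.6 and 67.4 to 47.8, 51.7 and 53.0 CPM. CENPH rose by 0.19 (SE 0.05, adjusted p = 8.96e-04), from 83.7, 92.5 and 82.4 to 95.7, 103 and 97.0 CPM. With spike-in scaling CENPH no longer passed (0.08, adjusted p = 0.518). The log2 ratio of CENPK to CENPH counts, which no scaling touches, was -0.26, -0.56 and -0.29 in the wild type libraries and at most -0.87 in the double knockout libraries. It was lower by 0.58 in the mean (exact permutation p = 0.1), the largest shift of the 5 pairs.

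NDC80, NUF2 and SPC25 encode subunits of the NDC80 complex, which holds the microtubule end, and none of these genes passed the test. NUF2 had 78.9 to 83.5 CPM in wild type and 79.3 to 85.1 CPM in the double knockout, and its log2 fold change of 0.00 had a 95% interval of -0.10 to 0.11. SPC25 had 50.8 to 59.8 CPM and 53.9 to 54.0 CPM (interval -0.15 to 0.12). NDC80 had 57.7 to 61.6 CPM and 52.9 to 57.8 CPM (log2 fold change -0.12, adjusted p = 0.0911), and it passed without double knockout replicate 1 (-0.16, adjusted p = 0.0487). SPC24, the remaining subunit and not among the 37, rose by 0.14. The log2 ratio of NDC80 to NUF2 counts was -0.45, -0.36 and -0.53 in wild type and -0.56, -0.58 and -0.56 in the double knockout (exact permutation p = 0.1). Its mean shift of -0.12 was the smallest of the 5 pairs.

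**Figure D3:**
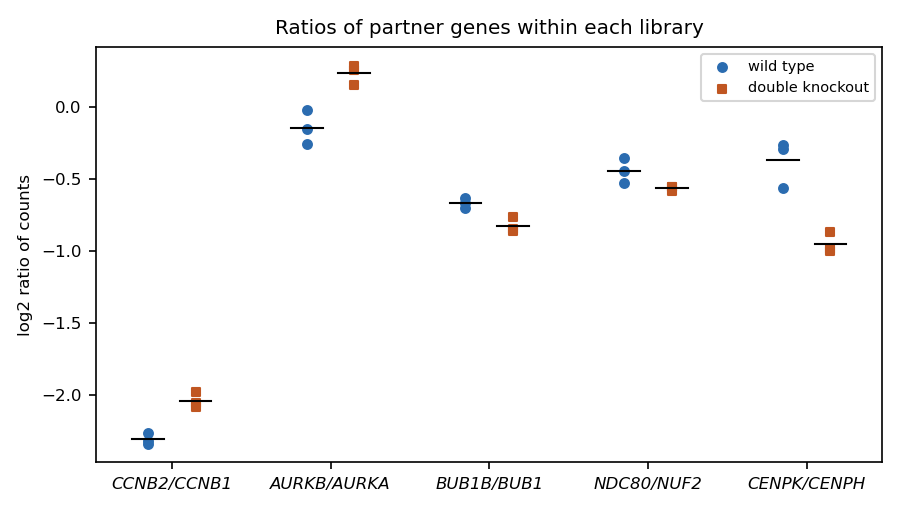
Log2 ratio of the counts of 2 partner genes within each library (vertical axis) for 5 pairs. Circles are the 3 wild type and squares the 3 double knockout libraries, and lines are group means. The groups do not overlap in any of the 5 pairs, and CENPK/CENPH shows the largest shift, from -0.37 to -0.95. Among single tested genes 30.3% do not overlap in each direction. How many other gene pairs have separate groups was not counted.

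All 4 genes of anaphase fell. ESPL1 encodes separase, the protease that opens cohesin rings. It had 112, 112 and 110 CPM in wild type, against 75.1, 67.1 and 74.7 CPM in the double knockout, and fell by 35.2% (log2 fold change -0.63, SE 0.05, adjusted p = 1.25e-27). PTTG1, which encodes securin, the inhibitor of separase, fell by 13.1%, from 103, 102 and 101 to 82.1, 91.9 and 92.2 CPM. CDC20, the activator of the anaphase-promoting complex, fell by 11.5%, from 130, 126 and 123 to 111, 110 and 115 CPM. UBE2C, the ubiquitin-conjugating enzyme of that complex, fell by 8.27%, from 107, 112 and 118 to 101, 106 and 102 CPM. The groups did not overlap in these 4 genes, but in UBE2C they nearly met. The UBE2C call was lost without wild type replicate 3 (-0.10, adjusted p = 0.118), double knockout replicate 1 (-0.11, 0.0631) or double knockout replicate 3 (-0.12, 0.0581), and with total counts in place of TMM (-0.07, 0.204) or DESeq2 (-0.13, 0.113).

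Of the 5 genes grouped under spindle and microtubules, 3 rose, 1 fell and 1 did not pass. That grouping leaves out the microtubule proteins TPX2, which fell, and PRC1, which did not pass. HMMR encodes RHAMM, a microtubule-binding protein of spindle poles. It rose by 0.33 (SE 0.05, adjusted p = 4.67e-10), from 90.7, 88.5 and 91.5 to 113, 112 and 116 CPM. CKAP2, a microtubule-stabilising protein, rose by 11.7%, from 202, 204 and 213 to 224, 233 and 232 CPM. TACC3, which binds clathrin and spindle microtubules, rose by 10.8%, from 91.3, 85.9 and 84.8 to 96.2, 95.6 and 99.2 CPM. Double knockout libraries were above wild type libraries in these 3 genes. The HMMR call stood under every alternative fit, with log2 fold changes from 0.22 (spike-in scaling, adjusted p = 0.0449) to 0.38. With spike-in scaling the CKAP2 (0.05, adjusted p = 0.667) and TACC3 (0.04, 0.748) calls were lost. TACC3 also missed the threshold without wild type replicate 2 (0.13, adjusted p = 0.0575), wild type replicate 3 (0.13, 0.0577) or double knockout replicate 3 (0.13, 0.0517), and with DESeq2 (0.15, 0.0758). DLGAP5, a microtubule protein also called HURP, fell by 24.0%, from 133, 140 and 137 to 112, 101 and 99.9 CPM.

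ECT2 and ANLN, which direct the cytokinetic ring, both fell. ECT2, the exchange factor that activates RhoA at the cleavage furrow, had 164, 164 and 164 CPM in wild type, against 92.1, 93.7 and 92.2 CPM in the double knockout. It fell by 43.5% (log2 fold change -0.82, SE 0.05, adjusted p = 8.95e-56), with the libraries of each group close together. ANLN, the scaffold protein anillin, fell by 16.2%, from 173, 167 and 180 to 149, 142 and 144 CPM.

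Of both genes of chromosome structure, TOP2A, which untangles sister DNA, fell by 21.0%, from 457, 448 and 459 to 373, 349 and 354 CPM. MKI67 encodes the proliferation marker Ki-67, which coats mitotic chromosomes. It had 180, 152 and 154 CPM in wild type, against 162, 130 and 148 CPM in the double knockout. Libraries within each group lay far apart, and the SE was 0.11, against 0.04 for BUB1. MKI67 did not pass (-0.15, adjusted p = 0.314), but it passed without wild type replicate 3 (-0.19, adjusted p = 0.00193) or without double knockout replicate 1 (-0.23, adjusted p = 0.0247). With all libraries it passed with limma voom (-0.15, adjusted p = 0.0109), spike-in scaling (-0.25, 0.0177), no low-count filter (-0.16, 0.00199) and a replicate block (-0.15, 0.00122). FOXM1, a transcription factor that activates many of these genes, had 211, 221 and 219 CPM and then 205, 203 and 208 CPM. Every double knockout library was below every wild type library, but the difference did not pass (-0.08, adjusted p = 0.0623). It passed without wild type replicate 1 (-0.11, adjusted p = 0.0210).

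PRC1, a bundler of antiparallel microtubules in the central spindle, and NUSAP1, a microtubule protein of the spindle near chromosomes, had the lowest counts of the 37 genes. PRC1 had 53 to 75 counts per library and NUSAP1 had 72 to 104. In GENCODE release 29, exons of another gene cover 58.4% of PRC1's exon bases and 62.2% of NUSAP1's, nearly all on the same strand. The covering genes had few counts too: AC068831.7 had 10 counts over the wild type and 4 over the double knockout libraries, and AC087721.2 had 45 and 34. These counts do not show how reads on shared exons were assigned. No other of the 37 genes had more than 15.9% of its exon bases covered. Neither gene passed the test (PRC1 -0.15, adjusted p = 0.394; NUSAP1 -0.17, adjusted p = 0.277), and the part of the overlap in these levels was not tested. Pseudogenes and near copies named after members, 15 in all, held 15 counts over the 6 libraries, 10 of them in PTTG3P and 5 in CDC20P1.

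Several of the largest falls lay in chromosome regions where most genes fell. For each gene, the tested genes that start within 5 Mb were taken, other mitotic genes of the list left out. CCNA2 (chr4:121816444-121823933, hg38) fell by 0.83 and the median of its 31 neighbours was -0.66, 26 of which fell. MAD2L1 (chr4:120055608-120067074) lies 1.75 Mb from CCNA2 and shares all 30 of its neighbours with it. Their median was -0.66, beside -0.60 for MAD2L1 itself. ECT2 (chr3:172750682-172821474) fell by 0.82 amid 21 neighbours with a median of -0.67, of which 18 fell. ANLN, on chromosome 7, had a smaller fall (-0.26) than the median of its 35 neighbours (-0.41). The part of these regional shifts in the 4 falls was not tested. CCNA2 also overlaps EXOSC9 on the opposite strand, in 9.08% of its exon bases.

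Other falls lay in regions whose median was nearer to 0. ESPL1 (chr12:53268299-53293643) fell by 0.63 while the median of its 175 neighbours was 0.11. CENPF (chr1:214603195-214664588) fell by 0.62 beside a median of -0.10, AURKA by 0.45 beside 0.07, PLK1 by 0.45 beside -0.09, CENPA by 0.41 beside 0.01 and TOP2A by 0.34 beside 0.11. Of the 37 genes, 29 (78.4%) were below the median of their neighbours, against 50.3% of all tested genes. Among genes that fell the share was alike, 90.5% of the 21 and 89.5% of all tested genes that fell. Over the 37 genes the median difference from the neighbours was -0.17, against -0.0020 for all tested genes measured the same way.

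The rises differed in this respect. TACC3 rose by 0.15 in a part of chromosome 4 where 61 of 69 neighbours rose and 0 fell (median 0.49), so that it rose less than its surroundings, and CKAP2 (0.16) also lay below its neighbours' median of 0.21. HMMR rose by 0.33 beside a median of 0.14. CENPH (chr5:69189548-69210357) begins 11.3 kb beyond the end of CCNB1 (chr5:69167010-69178245). CCNB1 and CENPH share 42 neighbours, whose median was -0.13, yet CCNB1 fell by 0.28 and CENPH rose by 0.19. This pair was singled out after its values were seen.

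**Figure D4:**
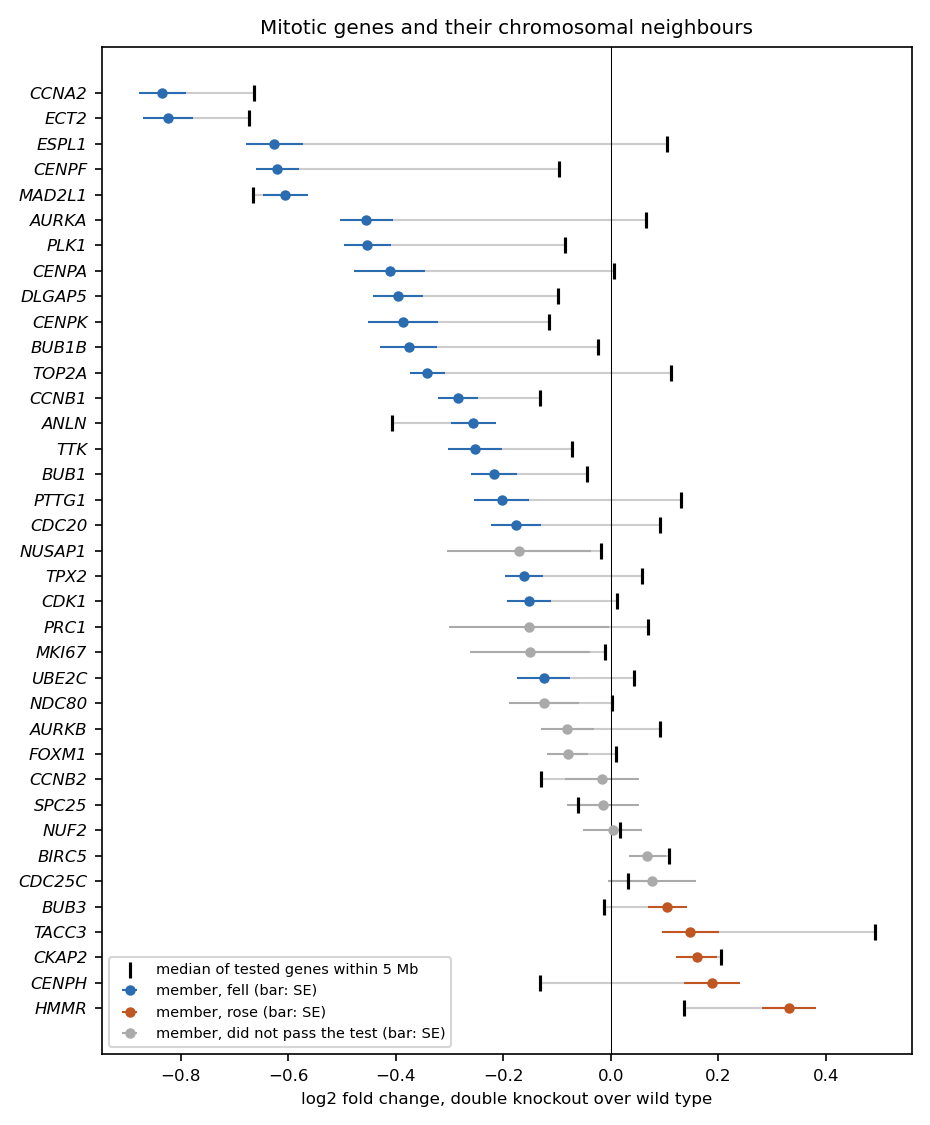
Log2 fold change of each of the 37 genes (points, bars are SE) and the median log2 fold change of the tested genes within 5 Mb of it (black ticks), ordered from the largest fall to the largest rise. Blue points fell, orange points rose and grey points did not pass. For CCNA2, ECT2 and MAD2L1 the tick lies far to the left with the point, whereas for ESPL1, CENPF and AURKA it lies near 0.

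Other genes of the same machinery were taken from 7 companion lists, with G1/S and replication genes as an eighth. On the 7 lists without the G1/S genes, 46 of 106 tested genes fell (43.4%) and 26 rose (24.5%), with a median of -0.07. On all 8 lists, 47 of 121 fell (38.8%) and 37 rose (30.6%). Over all tested genes 28.5% fell and 28.6% rose, which is the background for each list below. With spike-in scaling 46 of the 121 fell and 12 rose. That scaling also lowered the rises among all tested genes, from 4055 to 2133, so the drop was not particular to these lists.

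Of 24 tested other kinetochore and centromere genes, 10 fell and 4 rose (median -0.08). CENPC, which anchors the kinetochore to CENPA chromatin, fell by 0.75 amid neighbours with a median of -0.56, and CENPW fell by 0.62 amid neighbours with -0.53. KNL1, the scaffold that recruits BUB1 and BUBR1, fell by 0.58, from 78.1 ± 4.50 to 52.0 ± 1.12 CPM (SD, n = 3 each), beside a neighbour median of -0.02. Of 11 other checkpoint and centromere protection genes, 5 fell and 3 rose (median -0.03). SGO1, the shugoshin that shields centromeric cohesin, fell by 0.61 (neighbours -0.52), MAD1L1, the partner of MAD2, fell by 0.39 (neighbours -0.17), and CDCA8, which encodes the passenger subunit borealin, fell by 0.38 (neighbours 0.06). Of 16 tested genes of the anaphase-promoting complex and its regulators, 6 fell and 3 rose, with a median of 0.02. The subunit genes ANAPC5 and CDC27 fell by 0.34 each, and FBXO5, which encodes the inhibitor EMI1, fell by 0.48 (neighbours -0.61).

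Of 14 mitotic entry regulators and other mitotic kinases, 5 fell and 4 rose (median -0.01). BORA, the protein with which AURKA activates PLK1, rose by 0.84, from 64.1 ± 2.88 to 115 ± 3.73 CPM, while both kinase genes fell. BORA overlaps DIS3 on the opposite strand. LIN54, NFYA, MCM7, FBXO5, STAG1, SGO1 and SPC24 also have a tested gene opposite them, and whether counting used strand is not stated. CDC25B, a CDK1-activating phosphatase, rose by 0.39, and GTSE1, a microtubule-binding protein of G2 and M phase, fell by 0.41. Of 18 cohesin and condensin genes, 10 fell and 5 rose (median -0.11). The cohesin subunit gene STAG1 fell by 1.02 and the condensin gene SMC4 by 0.95, both on chromosome 3, with neighbour medians of -0.68 and -0.37, and the cohesin regulator PDS5A rose by 0.37 beside a median of 0.47. Of 10 cytokinesis and midbody genes, 4 fell and 4 rose (median -0.02). The septin gene SEPT7 fell by 0.51 (neighbours -0.41), whereas SEPT9 rose by 0.48 and MYH9, a non-muscle myosin heavy chain, by 0.43.

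Of 13 tested genes of the DREAM and MYB-MuvB regulators, 6 fell and 3 rose (median -0.07). LIN54, the MuvB subunit that binds CHR elements, fell by 0.69, from 64.8 ± 5.18 to 40.4 ± 2.58 CPM, beside a neighbour median of -0.46. NFYA, a subunit of the CCAAT-binding factor NF-Y, fell by 0.47 beside a median of -0.00099. MYBL2, which encodes B-MYB, rose by 0.33, from 338 ± 9.14 to 426 ± 10.9 CPM. In contrast to the mitotic genes, 11 of 15 G1/S and replication genes rose and 1 fell (median 0.17). CDT1, which licenses replication origins, rose by 0.77. E2F1, a transcription factor of S phase entry, rose by 0.62, and MCM7, part of the replicative helicase, rose by 0.52 (neighbours 0.26). With spike-in scaling 3 of these 15 rose and 1 fell. The direction of that list and its difference from the mitotic genes were not tested.

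**Figure D5:**
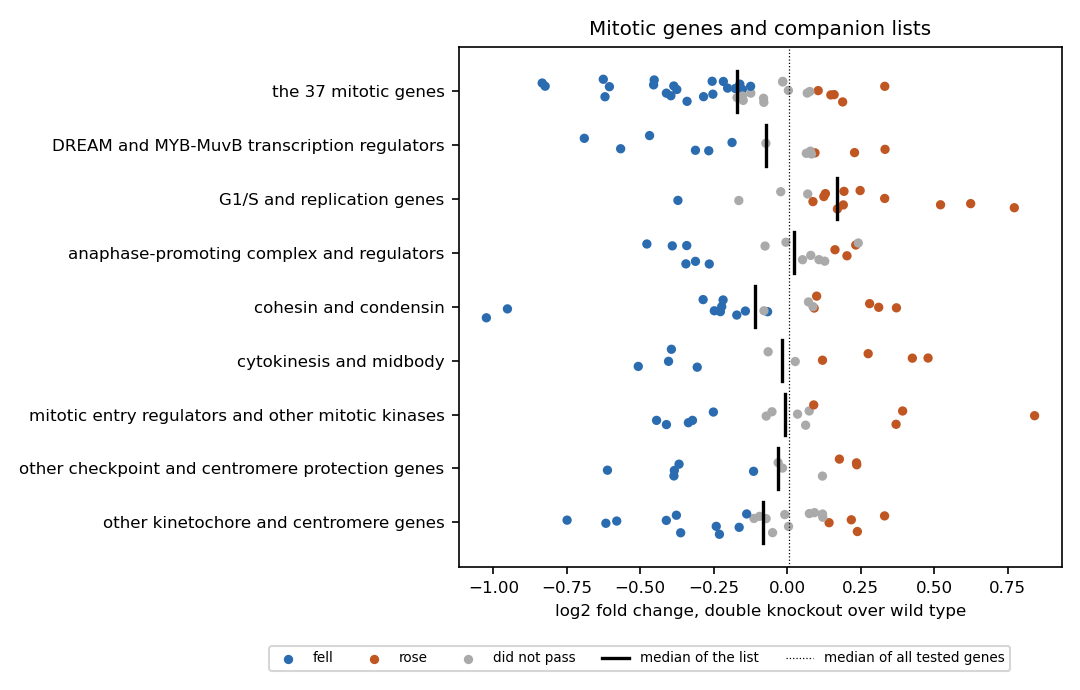
Log2 fold changes (horizontal axis) of the 37 mitotic genes and of the tested members of 8 companion lists, each point a gene, blue where it fell, orange where it rose and grey where it did not pass. Black bars are list medians, from -0.17 for the 37 genes to 0.17 for the G1/S and replication genes, and the dotted line is the median of all tested genes (0.01).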

How the data were processed

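Per the submitters' processing notes, reads were trimmed with cutadapt 2.10, aligned with STAR 2.7.6a to hg38 and counted per gene with featureCounts, for which no version, strand setting or handling of multiply aligned reads is stated. The table deposited by the authors holds whole-number counts for each gene, not normalised. Spike-in rows were kept out of library sizes. Gene symbols, positions and exon lengths came from GENCODE release 29.

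Counts were compared with edgeR 4.0.16 in R 4.3.3: filterByExpr defaults (minimum count 10, minimum total 15), TMM scaling, robust glmQLFit and two-sided glmQLFTest over all 14180 genes, Benjamini-Hochberg adjusted with a threshold of 0.05. The test was checked on simulated data, in which only a small share of genes changed. That check does not cover data in which, as here, 57.1% of tested genes passed. The 95% intervals of log2 fold changes use the same fit. Partner ratios used a prior count of 0.5 and exact permutation tests. P-values of the edgeR test rest on counting noise and the spread between 3 libraries a group, with each gene's spread moderated over all genes. They do not measure a spread between clones or cell lines. Alternatives were DESeq2 1.42.0, limma 3.58.1 (voom), other scalings and filters, a replicate block and leaving out each library.

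The 37 genes, the companion lists and the pairs were chosen with earlier results of these data known. Named genes were the 37, both targets and the up to 3 called genes with the smallest p of each companion list. SPC24 was named after its value was seen. Replicate libraries differed by a chi-square per degree of freedom of 1.10 to 1.42, against 11.9 to 14.1 between groups.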

Additional observations from a re-analysis of the deposited data

How the results depend on the processing

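Of the 21 genes that fell, 20 (all but UBE2C) were called in the same direction in all 15 fits, as was 1 of the 5 that rose (HMMR). Among these fits, spike-in scaling moved the median log2 fold change of all tested genes from 0.01 to -0.10. CENPH and CKAP2 lost their calls in no other fit. How many of all tested genes kept their calls in all 15 fits was not counted. Leaving out 1 library at a time gave 20 to 22 falls and 3 to 5 rises among the 37 genes, 3772 to 3915 falls and 3636 to 3827 rises among all genes, and 44 to 47 falls and 31 to 35 rises on the companion lists. Rises of the 37 numbered 3 with DESeq2, 3 without wild type replicate 3 and 1 with spike-in scaling, which left 2133 rises among all genes and 12 on the companion lists. GFP and FLuc together had 316 to 440 counts per library. The cause of the fewer rises was not tested. A required change of at least 1.5-fold left by construction 0 rises and 5 falls of the 37, 1534 and 992 of all genes, and 3 and 6 on the companion lists.

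Signs turned only in genes that did not pass. With spike-in scaling the log2 fold change was -0.0402 for BIRC5, -0.0306 for CDC25C and -0.104 for NUF2. With total counts it was 0.0372 for CCNB2 and 0.0375 for SPC25, and in genes with a mean CPM of 5 or more 0.00122 and 0.00156. NUF2 had -0.0105 without the low-count filter. Without 1 library at a time CCNB2 ranged from -0.0540 to 0.0125, NUF2 from -0.0308 to 0.0233 and SPC25 from -0.0778 to 0.0582. The partner ratios kept their direction with a prior count of 2 and without any 1 library, in ranges of 0.24 to 0.29 (CCNB2/CCNB1), 0.32 to 0.44 (AURKB/AURKA), -0.19 to -0.14 (BUB1B/BUB1), -0.16 to -0.08 (NDC80/NUF2) and -0.68 to -0.53 (CENPK/CENPH).

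Replicate numbers did not pair the libraries: same-numbered libraries had correlations of 0.0106, 0.0166 and 0.0085 after group means were removed. With the number as a replicate block, 22 of the 37 fell and 5 rose, MKI67 being added (-0.15, adjusted p = 0.00122).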
